A study of Saccharomyces cerevisiae with 21 samples.

Results

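The phosphate (PHO) regulon of budding yeast is the set of genes that the transcription factor Pho4 switches on when inorganic phosphate runs short. It was followed here through 10 listed Pho4 target genes: PHO84, PHO89, SPL2, PHO5, PHO11, PHO12, PHO8, VTC1, VTC3 and PHM6. The genes were listed by name and matched by gene symbol to the probe sets of an Affymetrix yeast expression array. Of the 10, 9 were measured, each by 1 probe set, among 5449 genes in all. No probe set carried the name PHO12, and the PHO11 probe set ended in s_at, the suffix for probes shared by several transcripts. The PHO11 signal can therefore not be assigned to PHO11 alone, because PHO12 is a near-identical copy.

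The arrays compared strains that lack parts of the Mediator tail with a wild type, in YPD (rich medium with yeast extract, peptone and dextrose) and in the medium that the labels call CSM, with RNA taken in mid-log phase at 30 °C. The gal11Δ med3Δ strain is MATα with GAL11 (also called MED15) and MED3 (PGD1) each replaced by kanMX4, and carries his3Δ1, leu2Δ0, met15Δ0 and also ura3Δ0. The gal11-myc med3Δ strain is MATa and has MED3 replaced by URA3. Its Gal11 protein carries 13 Myc epitopes, marked with HIS3MX, and its chromosomal SRB4 is replaced by kanMX and supplied from the CEN LEU2 plasmid RY2844. It lists his3Δ1, leu2Δ0 and ura3Δ0 but no met15 allele. The wild type, BY4741, is MATa with his3Δ1, leu2Δ0, met15Δ0 and, like both mutants, ura3Δ0. Each strain had 3 arrays per medium, and 3 further YPD arrays came from BY4742, labelled MATa with his3Δ1, leu2Δ0, lys2Δ0 and again ura3Δ0. Both mutants thus differ from the wild type in more than the Mediator subunits, and the effects of the subunits, the mating type, the markers and the SRB4 plasmid cannot be told apart. Nothing in the labels says that the 3 arrays of a group came from separate cultures, so p-values measure only the spread between these arrays.

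In phosphate-rich medium the cyclin and kinase pair Pho80 and Pho85 phosphorylates Pho4 and keeps it out of the nucleus. When phosphate falls, the inhibitor Pho81 blocks the kinase, and Pho4 enters the nucleus and binds with its partner Pho2 upstream of genes for phosphate uptake, phosphatases and polyphosphate synthesis. Mediator relays signals from such DNA-bound activators to RNA polymerase II, and its tail, to which Gal11 and Med3 belong, is the module that many activators contact.

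The deletions were visible in the data. GAL11 signal was lower by a log2 difference of -6.43 in YPD and -5.62 in CSM in gal11Δ med3Δ, and PGD1 signal was lower by -4.51 and -4.26 there and by -4.30 and -4.05 in gal11-myc med3Δ. LYS2 differed from the wild type by -6.50 and -6.88 in gal11Δ med3Δ, whose genotype label lists no lys2 allele, and MET17 (MET15) differed by 0.08 and 0.04 between gal11-myc med3Δ, which lists no met15 allele, and the met15Δ0 wild type. Values were log2 and centred on the median of each probe set within the 9 arrays of a medium, so a level cannot be set against that of another gene or medium, while differences between strains within a medium can. In CSM, genes of chromosome II (387 genes, among them PHO5 and PHO89) had a median difference of -0.72 in gal11Δ med3Δ and of -0.74 in gal11-myc med3Δ against the wild type, both computed with the same wild-type CSM arrays. In YPD, genes of chromosome V (259 genes, among them VTC1) had a median difference of 0.79 in gal11Δ med3Δ. The other 14 chromosomes lay between -0.02 and 0.15 across the 4 comparisons of a mutant with the wild type. Among the YPD arrays, replicate 3 was the lowest of its group for 9 of the 9 regulon genes in gal11Δ med3Δ and for 9 of 9 in gal11-myc med3Δ, against 52.0% and 44.7% of all genes on those arrays. The SD over the 3 YPD arrays had a median over the regulon of 0.72 in gal11Δ med3Δ, 0.48 in gal11-myc med3Δ and 0.27 in the wild type, while the medians over all genes were 0.11, 0.12 and 0.14. The cause of this spread was not tested.

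**Figure D1:**
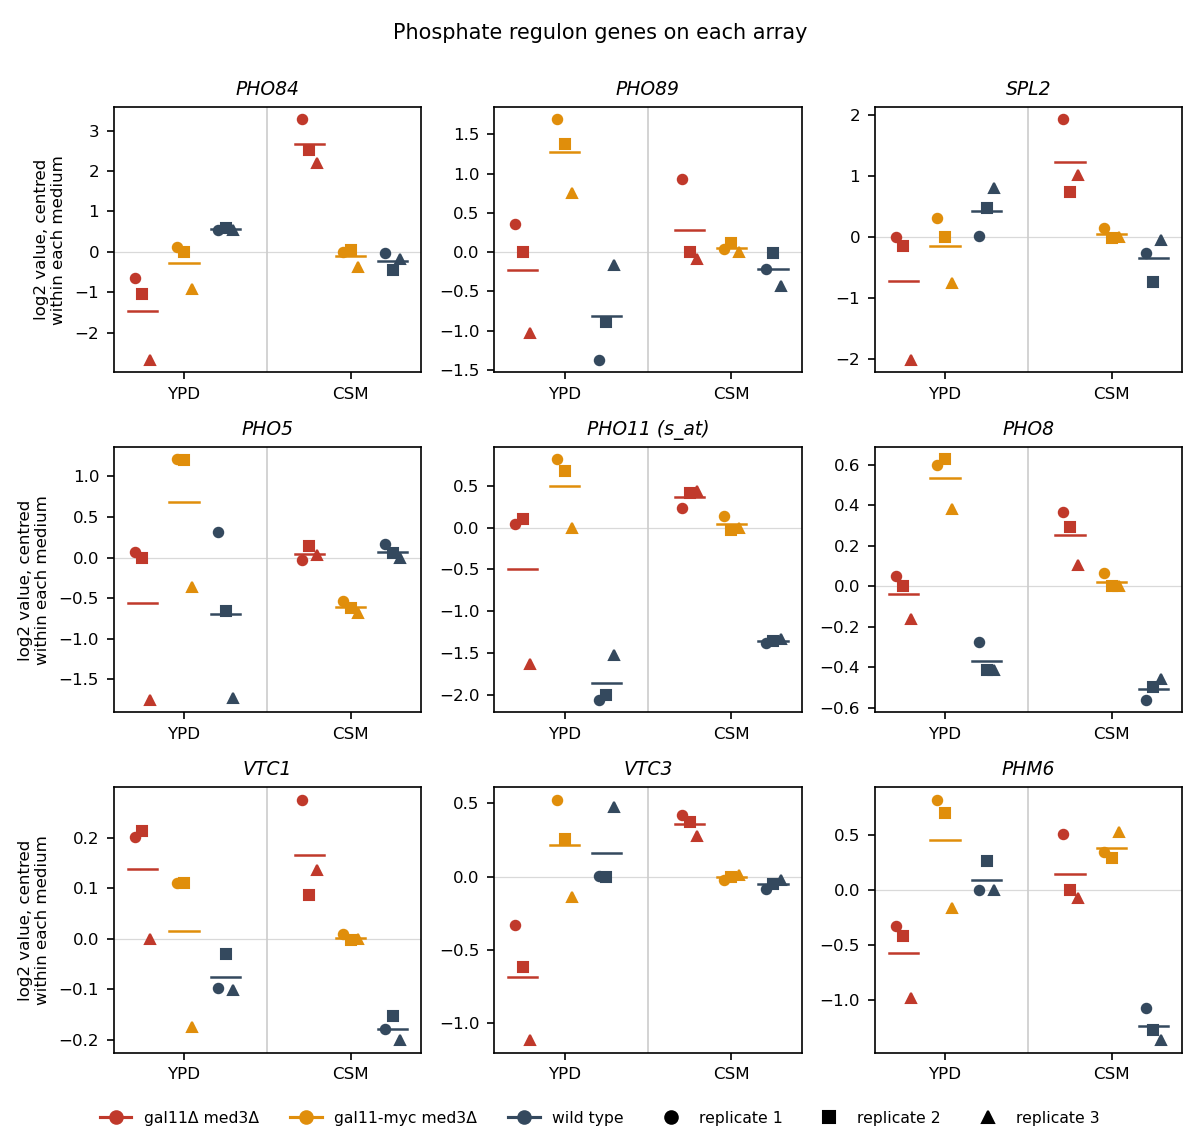
Centred log2 values of the 9 measured regulon genes (vertical axis) on each YPD array (left of each panel) and CSM array (right), with gal11Δ med3Δ in red, gal11-myc med3Δ in orange and wild type in dark blue. Symbols mark the replicate number and bars the mean of 3 arrays. In gal11Δ med3Δ, PHO84 lies below the wild type on all 3 YPD arrays and above it on all 3 CSM arrays.

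In YPD, the gal11Δ med3Δ strain carried less PHO84 and SPL2 transcript and more PHO11 signal than the wild type. These 3 of the 9 genes were called, meaning an adjusted p under 0.05 in limma's test and at least a 2-fold difference, 1 higher and 2 lower, against 7.47% of all genes (4.66% higher and 2.81% lower). At any size 7 of the 9 passed the adjusted p, 3 higher and 4 lower, against 46.9% of all genes (27.5% higher and 19.4% lower). This count rested on single arrays: it was 3 without wild-type replicate 3, 4 without wild-type replicate 1 or 2 or gal11Δ med3Δ replicate 1 or 2, and 5 without gal11Δ med3Δ replicate 3. The groups did not overlap for 6 of 9, against 52.4% of all genes. The median difference of the 9 was 0.13, and that of all genes 0.03. In CSM, 4 of the 9 were called, all higher (PHO84, SPL2, PHO11 and PHM6), against 9.29% of all genes (5.07% higher and 4.22% lower). At any size 6 passed, all higher, against 45.5% (27.1% higher and 18.4% lower), and the groups did not overlap for 7 of 9, against 58.2%. The median difference in CSM was 0.76, and that of all genes 0.04.

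In gal11-myc med3Δ, the genes that stood out in YPD were PHO89 and PHO11. These 2 of the 9 were called, both higher, against 4.33% of all genes (2.57% higher and 1.76% lower). In CSM the 2 called genes, both higher, were PHO11 and PHM6, against 6.22% (2.95% higher and 3.27% lower). At any size 3 of 9 passed in YPD, all higher, against 33.3% of all genes (21.2% higher and 12.1% lower), and 5 without gal11-myc med3Δ replicate 3. In CSM 3 of 9 passed, all higher, against 36.6% (22.4% higher and 14.2% lower). These shares lie near those of all genes. Groups did not overlap for 4 of 9 in YPD, against 42% of all genes, and for 7 of 9 in CSM, against 70.7%. The median difference of the 9 was 0.36 in YPD and 0.27 in CSM, and that of all genes 0.03 and 0.06. The comparisons of both mutants within a medium share the wild-type arrays.

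**Figure D2:**
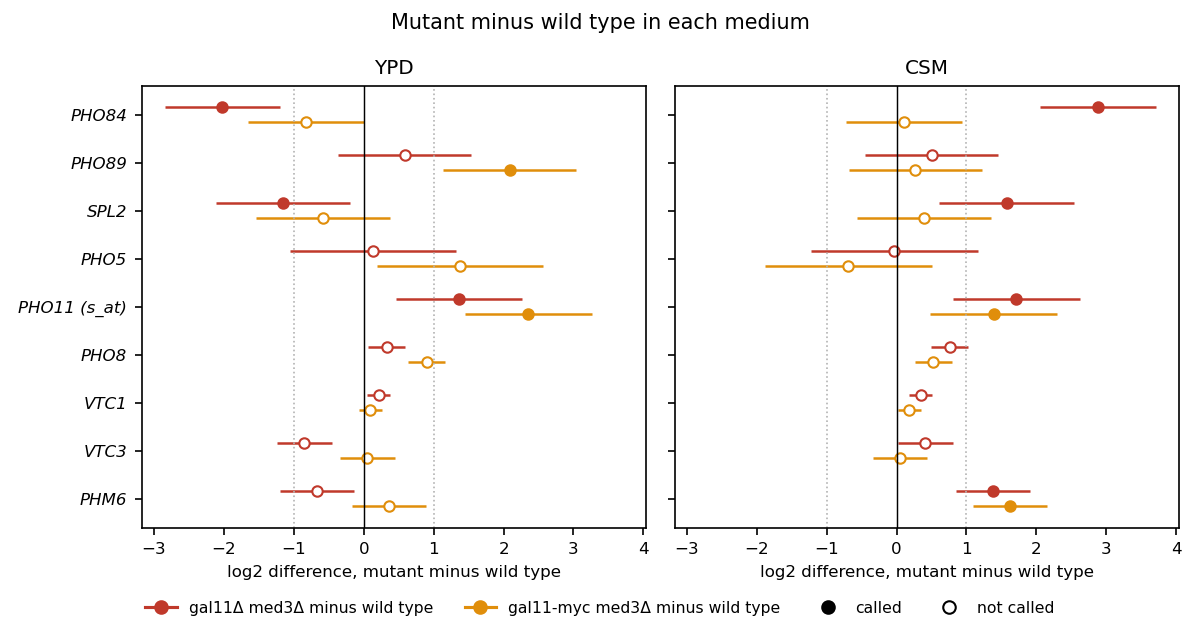
Log2 difference (horizontal axis) of each regulon gene (rows) in gal11Δ med3Δ (red) and gal11-myc med3Δ (orange) minus wild type, in YPD (left) and CSM (right), with 95% confidence intervals; filled points were called and dotted lines mark 2-fold. PHO84 in gal11Δ med3Δ lies at -2.02 in YPD and at 2.89 in CSM.

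PHO84 encodes the high-affinity proton-coupled phosphate transporter of the plasma membrane, the main importer of starved cells. In YPD its centred log2 values were -0.66, -1.05 and -2.69 in gal11Δ med3Δ, 0.12, 0.00 and -0.92 in gal11-myc med3Δ, and 0.54, 0.58 and 0.54 in the wild type. Every mutant array lay below every wild-type array, with gal11Δ med3Δ replicate 3 the lowest. The gal11Δ med3Δ level fell 4.06-fold, a log2 difference of -2.02 ± 0.39 (SE, n = 3 arrays a group, adjusted p = 0.000463, limma). This SE, like all those given, rests on a spread shared by all 7 groups. The SDs of the groups compared were 1.08 in gal11Δ med3Δ and 0.03 in the wild type. The authors' deposited table gave this PHO84 difference a corrected p of 0.120. Leaving out any 1 array of either group gave -2.42 to -1.41, with adjusted p of at most 0.0022. In gal11-myc med3Δ the difference of -0.82 ± 0.39 did not pass (adjusted p = 0.120).

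In CSM, PHO84 had values of 3.28, 2.53 and 2.19 in gal11Δ med3Δ, 0.00, 0.04 and -0.38 in gal11-myc med3Δ, and -0.02, -0.44 and -0.18 in the wild type. All 3 gal11Δ med3Δ arrays stood above all others, and gal11-myc med3Δ overlapped the wild type. PHO84 rose 7.39-fold in gal11Δ med3Δ, a log2 difference of 2.89 ± 0.39 with a 95% confidence interval from 2.06 to 3.71 (adjusted p = 1.10e-05). The gal11-myc med3Δ difference was 0.11, with an interval from -0.72 to 0.93 (adjusted p = 0.861). PHO84 thus changed in opposite directions in the same strain in the 2 media.

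SPL2 encodes a small protein that lowers uptake through the low-affinity phosphate transporters when the high-affinity system is on. In YPD it had values of 0.00, -0.14 and -2.02 in gal11Δ med3Δ, 0.32, 0.00 and -0.75 in gal11-myc med3Δ, and 0.01, 0.47 and 0.81 in the wild type. The first gal11Δ med3Δ array nearly met the lowest wild-type array, and replicate 3 lay far below. The gal11Δ med3Δ difference was -1.15 ± 0.45 (adjusted p = 0.0466) and depended on single arrays. It was -0.50 (adjusted p = 0.292) without gal11Δ med3Δ replicate 3, and the adjusted p was 0.0981 without wild-type replicate 2 and 0.132 without wild-type replicate 3. In CSM, SPL2 had 1.93, 0.73 and 1.02 in gal11Δ med3Δ, 0.15, -0.01 and 0.00 in gal11-myc med3Δ, and -0.26, -0.74 and -0.04 in the wild type. Neither mutant overlapped the wild type there. SPL2 rose 2.98-fold in gal11Δ med3Δ, by 1.57 ± 0.45 on the log2 scale (adjusted p = 0.00905), and the difference was 1.22 (adjusted p = 0.0505) without gal11Δ med3Δ replicate 1. The authors' deposited table gave the gal11Δ med3Δ differences a corrected p of 0.347 in YPD and of 0.0941 in CSM. In gal11-myc med3Δ the differences were -0.58 in YPD (adjusted p = 0.358) and 0.39 in CSM (adjusted p = 0.542).

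PHO89 encodes the sodium-coupled high-affinity phosphate transporter, which works at alkaline pH. In YPD its values were 0.35, 0.00 and -1.03 in gal11Δ med3Δ, 1.69, 1.38 and 0.76 in gal11-myc med3Δ, and -1.38, -0.89 and -0.16 in the wild type. Only the gal11-myc med3Δ arrays were clear of the wild type. PHO89 rose 4.25-fold there, by 2.09 ± 0.45 on the log2 scale (adjusted p = 0.00178), and by 1.80 to 2.41 when any 1 array of either group was left out. The authors' deposited table gave this PHO89 difference a corrected p of 0.0937. In gal11Δ med3Δ the difference of 0.58 ± 0.45 did not pass (adjusted p = 0.300). Without the 3 YPD arrays numbered 3 it was 1.31 (adjusted p = 0.0330). In CSM the values were 0.93, 0.00 and -0.09 in gal11Δ med3Δ, 0.04, 0.11 and 0.00 in gal11-myc med3Δ, and -0.22, -0.01 and -0.43 in the wild type. The differences of 0.50 and 0.27 did not pass (adjusted p = 0.391 and 0.685). PHO89 lies on chromosome II. With each array centred on the median of its chromosome, the CSM differences were 1.16 in gal11Δ med3Δ (adjusted p = 0.0442) and 0.94 in gal11-myc med3Δ (adjusted p = 0.121).

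PHO5 encodes the major secreted acid phosphatase, the classical reporter of the pathway, and also lies on chromosome II. In YPD its values were 0.07, 0.00 and -1.76 in gal11Δ med3Δ, 1.21, 1.21 and -0.37 in gal11-myc med3Δ, and 0.31, -0.66 and -1.74 in the wild type. The groups overlapped, and the arrays numbered 3 were the lowest in every strain. The difference was 0.13 ± 0.56 in gal11Δ med3Δ, with an interval from -1.06 to 1.32 (adjusted p = 0.864), and 1.38 ± 0.56 in gal11-myc med3Δ (adjusted p = 0.0701). With the replicate number as a block, the same difference of 1.38 had an adjusted p of 0.00744. In CSM the values were -0.03, 0.14 and 0.03 in gal11Δ med3Δ, -0.54, -0.62 and -0.68 in gal11-myc med3Δ, and 0.17, 0.05 and 0.00 in the wild type. The gal11-myc med3Δ arrays lay below the rest, but the difference of -0.69 did not pass (adjusted p = 0.375) and was -0.02 after centring on the chromosome median. The gal11Δ med3Δ difference was -0.03 (adjusted p = 0.973), and 0.63 after that centring (adjusted p = 0.394). These tests used 1 spread for PHO5 over all 7 groups. In gal11-myc med3Δ and the wild type its SDs were 0.07 and 0.09 in CSM, but 0.91 and 1.02 in YPD. The authors' deposited table gave the -0.69 in CSM a corrected p of 0.0041.

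The PHO11 signal, from the shared probe set of minor secreted acid phosphatases, was called higher in all 4 comparisons of a mutant with the wild type. Of all genes, 56 (1.03%) were so. In YPD the values were 0.04, 0.10 and -1.62 in gal11Δ med3Δ, 0.81, 0.68 and 0.00 in gal11-myc med3Δ, and -2.06, -1.99 and -1.52 in the wild type. The gal11Δ med3Δ replicate 3 reached down into the wild-type range, while every gal11-myc med3Δ array was above it. The differences were 1.36 ± 0.43 in gal11Δ med3Δ (adjusted p = 0.0154) and 2.35 ± 0.43 in gal11-myc med3Δ (adjusted p = 0.000451). The gal11Δ med3Δ call was lost without its replicate 1 (adjusted p = 0.0764), its replicate 2 (0.0779) or wild-type replicate 1 (0.0515). In CSM the values were 0.24, 0.41 and 0.43 in gal11Δ med3Δ, 0.14, -0.03 and 0.00 in gal11-myc med3Δ, and -1.38, -1.35 and -1.33 in the wild type. Here both mutants were well clear of the wild type. The PHO11 signal rose 3.27-fold in gal11Δ med3Δ (1.71 ± 0.43, adjusted p = 0.00347) and 2.62-fold in gal11-myc med3Δ (1.39 ± 0.43, adjusted p = 0.0172). The gal11-myc med3Δ call in CSM had an adjusted p of 0.0519 without its replicate 1. In the authors' deposited table the gal11Δ med3Δ difference in YPD had a corrected p of 0.228. The other 3 PHO11 differences had 0.0395 at most there.

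PHO8, which encodes the alkaline phosphatase of the vacuole, had smaller differences. In YPD it ranged from -0.16 to 0.05 in gal11Δ med3Δ, from 0.38 to 0.63 in gal11-myc med3Δ and from -0.42 to -0.27 in the wild type. In CSM the ranges were 0.10 to 0.37 in gal11Δ med3Δ, 0.00 to 0.06 in gal11-myc med3Δ and -0.56 to -0.46 in the wild type. Neither mutant overlapped the wild type in either medium. The differences for gal11Δ med3Δ were 0.33 in YPD and 0.76 in CSM (adjusted p = 0.0387 and 8.39e-05), and those for gal11-myc med3Δ were 0.90 in YPD and 0.53 in CSM (adjusted p = 3.29e-05 and 0.00293). All 4 were below 2-fold. The gal11Δ med3Δ difference in YPD no longer passed without wild-type replicate 2 or 3 or gal11Δ med3Δ replicate 1 or 2, with adjusted p of 0.122 at most, while the other 3 passed in each fit that left out 1 array. In the authors' deposited table that YPD difference had a corrected p of 0.0958, and the other 3 had 0.0300 at most. Passing in the higher direction in all 4 comparisons at any size held for 488 genes, or 8.96% of all.

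VTC1 and VTC3 encode subunits of the vacuolar transporter chaperone complex, which makes polyphosphate and moves it into the vacuole. VTC1 values spanned -0.20 to 0.28 over the 18 arrays of the 3 strains. It was higher in gal11Δ med3Δ by 0.21 in YPD (adjusted p = 0.0326) and by 0.34 in CSM (adjusted p = 0.00161), and the gal11-myc med3Δ differences of 0.09 and 0.18 did not pass (adjusted p = 0.397 and 0.0833). The authors' deposited table gave the 0.18 in CSM a corrected p of 0.0026. The YPD difference in gal11Δ med3Δ no longer passed without wild-type replicate 1 or 3 or gal11Δ med3Δ replicate 1 or 2, with adjusted p of 0.116 at most. In the authors' deposited table the gal11Δ med3Δ differences had a corrected p of 0.137 in YPD and of 0.0303 in CSM. VTC1 lies on chromosome V, where the median difference in gal11Δ med3Δ was 0.79 in YPD and 0.16 in CSM. After centring on the chromosome, the YPD difference of VTC1 in gal11Δ med3Δ was -0.51 (adjusted p = 3.82e-05).

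VTC3 had YPD values of -0.33, -0.61 and -1.12 in gal11Δ med3Δ, 0.53, 0.25 and -0.14 in gal11-myc med3Δ, and 0.01, 0.00 and 0.47 in the wild type. Only gal11Δ med3Δ stood clear of the wild type, by -0.85 ± 0.19 (adjusted p = 0.00132), a decrease under 2-fold. This YPD difference had a corrected p of 0.132 in the authors' deposited table. In CSM it had 0.42, 0.37 and 0.28 in gal11Δ med3Δ, -0.02, 0.00 and 0.01 in gal11-myc med3Δ, and -0.09, -0.05 and -0.02 in the wild type. The gal11Δ med3Δ arrays were again apart, now above the rest, by 0.41 ± 0.19 (adjusted p = 0.0826). The SDs of gal11Δ med3Δ and the wild type were 0.07 and 0.03 in CSM, but 0.40 and 0.27 in YPD, and the test shared 1 spread. The authors' deposited table gave this CSM difference a corrected p of 0.0105. In gal11-myc med3Δ VTC3 differed from the wild type by 0.05 in each medium (adjusted p = 0.857 and 0.863).

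PHM6 encodes a protein of unknown function known for its response to phosphate. In YPD its values were -0.32, -0.42 and -0.98 in gal11Δ med3Δ, 0.82, 0.69 and -0.17 in gal11-myc med3Δ, and 0.00, 0.26 and 0.00 in the wild type. The gal11Δ med3Δ arrays were below the wild type and the gal11-myc med3Δ arrays on both sides of it. In CSM the values were 0.50, 0.00 and -0.08 in gal11Δ med3Δ, 0.34, 0.28 and 0.52 in gal11-myc med3Δ, and -1.07, -1.28 and -1.37 in the wild type, so that both mutants lay above it. PHM6 was lower in gal11Δ med3Δ in YPD by -0.66 ± 0.25, under 2-fold (adjusted p = 0.0380), and rose 2.60-fold in CSM (1.38 ± 0.25, adjusted p = 0.000222). In gal11-myc med3Δ it differed by 0.36 in YPD (adjusted p = 0.293) and rose 3.08-fold in CSM (1.62 ± 0.25, adjusted p = 5.93e-05). Without the 3 YPD arrays numbered 3 the gal11Δ med3Δ difference in YPD was -0.51 (adjusted p = 0.0851), and it no longer passed without any 1 of the 3 wild-type arrays or without gal11Δ med3Δ replicate 3 (adjusted p of 0.172 at most). In the authors' deposited table the gal11Δ med3Δ differences had a corrected p of 0.149 in YPD and of 0.0212 in CSM. The gal11-myc med3Δ difference in CSM had 0.00189 there.

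The difference between the media was tested as the effect in CSM minus the effect in YPD. For gal11Δ med3Δ, 4 of the 9 regulon genes were called, all with the higher effect in CSM (PHO84, SPL2, PHM6 and VTC3), against 7.18% of all genes (3.23% higher and 3.95% lower). PHO84 had a difference of 4.91 ± 0.55, a 30.0-fold change of the effect (adjusted p = 4.93e-06). SPL2 had 2.73 ± 0.64 (adjusted p = 0.00386), PHM6 had 2.04 ± 0.35 (adjusted p = 0.000332) and VTC3 had 1.26 ± 0.26 (adjusted p = 0.00159). All 4 held when any 1 array was left out. VTC3 fell under 2-fold, at 0.89 (adjusted p = 0.0011), without the 3 YPD arrays numbered 3. The phosphatase genes PHO5, PHO8 and PHO11 had differences of -0.16, 0.43 and 0.35, PHO89 had -0.08 and VTC1 had 0.13, and none of these 5 passed (adjusted p from 0.0758 to 0.938). The values of PHO5 and PHO89 stand beside a chromosome II median of -0.73, and that of VTC1 beside a chromosome V median of -0.65. They lie above these medians, so values near 0 do not show that these genes lack a dependence on the medium. In gal11Δ med3Δ, 6 genes of the whole table, or 0.11%, were called lower in YPD and higher in CSM, PHO84 and SPL2 among them. Of all genes, 2.81% were called lower in YPD and 5.07% higher in CSM. The SPL2 difference in YPD did not pass in 3 of 6 fits that left out 1 array.

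For gal11-myc med3Δ, 1 of the 9 was called, PHM6, against 3.06% of all genes (0.991% higher and 2.07% lower), with an effect higher in CSM by 1.26 ± 0.35 (adjusted p = 0.0237). The call was lost without wild-type YPD replicate 2, wild-type CSM replicate 2 or 3, gal11-myc med3Δ YPD replicate 3 or gal11-myc med3Δ CSM replicate 3, with adjusted p of 0.0641 at most. PHO89 and PHO5 had the largest negative differences of the 9 genes, -1.82 ± 0.64 (adjusted p = 0.0704) and -2.07 ± 0.80 (adjusted p = 0.102), beside a chromosome II median of -0.81. With the replicate number as a block the PHO5 difference had an adjusted p of 0.0113. After centring on the chromosome, PHO89 had -1.15 (adjusted p = 0.295) and PHO5 -1.40 (adjusted p = 0.313).

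**Figure D3:**
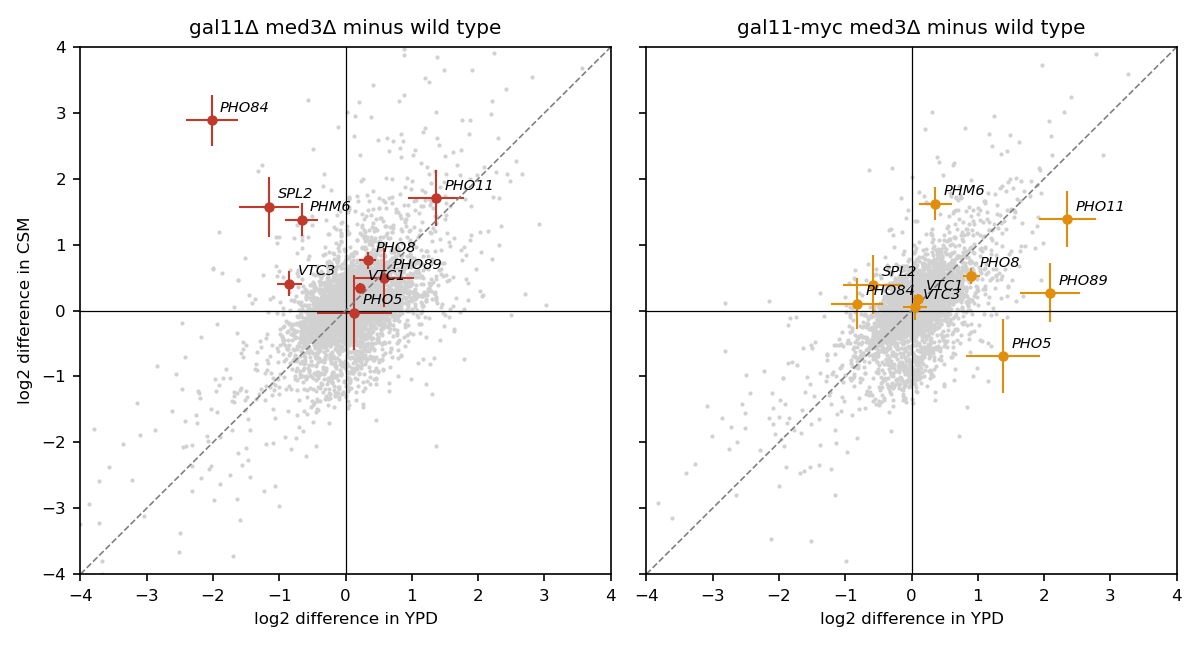
Log2 difference from the wild type in CSM (vertical axis) against that in YPD (horizontal axis) for gal11Δ med3Δ (left) and gal11-myc med3Δ (right); grey points are the genes of the table inside the axis limits, coloured points the 9 regulon genes with SE, and the dashed line marks equal effects. In gal11Δ med3Δ, PHO84 and SPL2 lie in the upper left, lower in YPD and higher in CSM.

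The gal11Δ med3Δ and gal11-myc med3Δ strains were also set against each other. Besides Gal11 they differ in mating type, markers, the Myc epitopes and the SRB4 plasmid, and these effects cannot be told apart. Chromosome V genes had a median difference of 0.80 in YPD, gal11Δ med3Δ minus gal11-myc med3Δ. In YPD, 3 of the 9 regulon genes were called, all lower in gal11Δ med3Δ than in gal11-myc med3Δ, against 2.02% of all genes (1.25% higher and 0.771% lower). PHO84 was lower by a log2 difference of -1.20 ± 0.39 (adjusted p = 0.0484), PHO89 by -1.50 ± 0.45 (adjusted p = 0.0315) and PHM6 by -1.03 ± 0.25 (adjusted p = 0.00930). Each was sensitive to single arrays. PHO84 and PHO89 lost the call without gal11Δ med3Δ replicate 2 or 3 or gal11-myc med3Δ replicate 1 or 2, with adjusted p of at most 0.206 for PHO84 and 0.139 for PHO89. PHM6 lost it without gal11Δ med3Δ replicate 3, where the difference fell under 2-fold at -0.82, or gal11-myc med3Δ replicate 1 or 2. At any size 5 of 9 passed, all lower, against 15.1% (6.15% lower), the others being VTC3 at -0.90 (adjusted p = 0.00265) and PHO8 at -0.57 (adjusted p = 0.00412). That count was 2 without gal11-myc med3Δ replicate 1 or 2 and 3 without gal11Δ med3Δ replicate 2 or 3. It was 5 without gal11Δ med3Δ replicate 1 and 6 without gal11-myc med3Δ replicate 3. The PHO5 difference of -1.25 had an adjusted p of 0.157, and of 0.0243 with the replicate number as a block. In CSM, 1 of 9 was called, PHO84, higher in gal11Δ med3Δ by 2.78 ± 0.39 (adjusted p = 9.21e-05), against 2.17% of all genes (1.47% higher and 0.697% lower). It kept the call in each fit that left out 1 array, with differences of 2.47 to 3.02. SPL2 was next at 1.18 ± 0.45 (adjusted p = 0.0845).

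**Figure D4:**
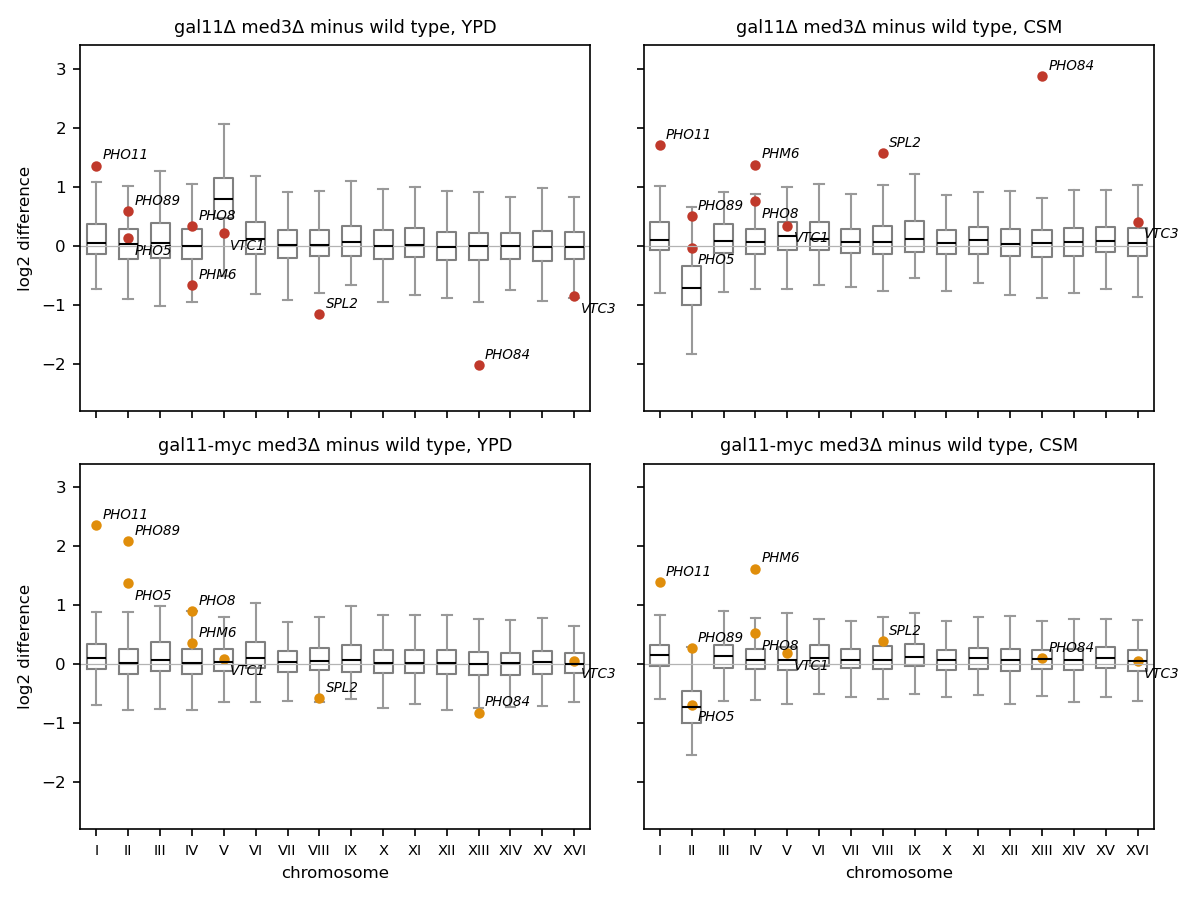
Log2 difference from the wild type (vertical axis) by chromosome for gal11Δ med3Δ (top) and gal11-myc med3Δ (bottom), in YPD (left) and CSM (right); boxes show the quartiles of all genes of a chromosome, whiskers reach at most 1.5 times the box height beyond it, and coloured points are the regulon genes. Chromosome II is low in CSM in both mutants and chromosome V high in YPD in gal11Δ med3Δ.

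Over the 18 arrays of the 3 strains, with values centred within each medium, the Pearson correlation was positive for 36 of 36 pairs of genes, from 0.08 to 0.91 with a median of 0.46. Over pairs of all 5449 genes the median was 0.01 and 51.0% were positive. These values keep the differences between strains. As deviations from the mean of each group, 36 of 36 pairs of regulon genes were again positive, with a median of 0.72, beside a median of 0.03 and 52.1% positive over pairs of all genes. In both mutants YPD replicate 3 was the lowest for 9 of 9 regulon genes. A few arrays can thus carry the positive pairs, which are not independent of each other. As centred within medium, PHO84 and SPL2 had 0.91 and PHO8 and PHO11 had 0.87. PHO84 and PHO89, the pair of high-affinity transporters, had 0.19. These arrays share strains, media and array effects, so the correlations are descriptions. The genes most like PHO84 over the same arrays were AAD10 (0.91), SPL2 (0.91), SRD1 (0.89), OYE3 (0.86) and DIB1 (0.86). Those most like PHO5 were YNL208W (0.83), SPO19 (0.82), YOR381W-A (0.79), YJR154W (0.78) and VPS75 (0.78), none of them a listed regulon gene.

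None of the 15 measured regulator and sensing genes was called by limma in any of the 4 comparisons of a mutant with the wild type, against 7.47% of all genes for gal11Δ med3Δ in YPD, 9.29% in CSM, 4.33% for gal11-myc med3Δ in YPD and 6.22% in CSM. In gal11Δ med3Δ, 7 of 15 passed the adjusted p at any size in YPD, against 46.9% of all genes, and 4 in CSM, against 45.5% (8 and 6 at an unadjusted p under 0.05). In gal11-myc med3Δ, 4 passed at any size in YPD, against 33.3%, and 1 in CSM, against 36.6% (6 and 3 at an unadjusted p under 0.05). These shares lie at or below those of all genes. PHO4 itself differed by -0.18 and 0.13 in gal11Δ med3Δ and by -0.07 and 0.13 in gal11-myc med3Δ, in YPD and CSM in that order, with adjusted p from 0.439 to 0.791. PHO2 was lower in gal11-myc med3Δ in YPD by -0.29 (adjusted p = 0.0142) and differed by -0.03 to -0.22 elsewhere without passing. The largest differences were those of ARG82, an inositol polyphosphate kinase, at 0.54 in gal11Δ med3Δ in YPD (adjusted p = 0.000434), and of DDP1, an inositol pyrophosphate phosphatase, at 0.51 in YPD in gal11-myc med3Δ (adjusted p = 0.00166).

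Of 11 other genes of phosphate transport and of glycerophosphodiester uptake and use, 0 were called by limma in gal11Δ med3Δ in YPD, against 7.47% of all genes, where 7 passed at any size, against 46.9%, and 7 at an unadjusted p under 0.05. In gal11Δ med3Δ in CSM 1 was called, against 9.29% of all genes. In gal11-myc med3Δ 2 were called in YPD, against 4.33%, and 1 in CSM, against 6.22%. All these calls were higher. GIT1, the permease for glycerophosphoinositol, accounted for the calls in both mutants in CSM, at 1.28 in gal11Δ med3Δ (adjusted p = 3.19e-06) and 1.07 in gal11-myc med3Δ (adjusted p = 3.41e-05). In YPD it was at 0.61 in gal11Δ med3Δ (adjusted p = 0.00418) and was called at 1.21 in gal11-myc med3Δ (adjusted p = 1.63e-05). GDE1, a glycerophosphocholine phosphodiesterase and thus an enzyme rather than a transporter, made the other call, in gal11-myc med3Δ in YPD at 1.03 (adjusted p = 1.97e-05).

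Among 10 other phosphatase and polyphosphate genes measured of 12 listed, 2 were called in gal11Δ med3Δ in YPD, both lower, against 7.47% of all genes (2.81% lower). In CSM 4 were called, 1 higher and 3 lower, against 9.29% (5.07% higher and 4.22% lower). In gal11-myc med3Δ 1 was called in YPD, lower, against 4.33% (1.76% lower), and 2 in CSM, 1 higher and 1 lower, against 6.22% (2.95% higher and 3.27% lower). PHM8, a phosphatase of lysophosphatidic acid and nucleotides, was called lower in all 4. It is outside the listed regulon genes, and those called in CSM were all higher. Its CSM values were 0.56, 0.00 and -0.01 in gal11Δ med3Δ, -0.83, -0.96 and -0.67 in gal11-myc med3Δ, and 2.76, 2.53 and 2.74 in the wild type. PHM8 fell 5.63-fold in gal11Δ med3Δ (-2.49 ± 0.39, adjusted p = 5.06e-05) and 11.3-fold in gal11-myc med3Δ (-3.50 ± 0.39, adjusted p = 1.88e-06) in CSM, and its YPD differences were -1.74 (adjusted p = 0.00154) and -1.51 (adjusted p = 0.00657). PHO3, the constitutive acid phosphatase gene next to PHO5 on chromosome II, was called lower in gal11Δ med3Δ, by -1.69 in YPD (adjusted p = 6.54e-07) and by -1.24 in CSM (adjusted p = 1.48e-05). In gal11-myc med3Δ its differences were -0.64 in YPD and -0.67 in CSM, under 2-fold (adjusted p = 0.00869 and 0.00538). The CSM values stand beside chromosome II medians of -0.72 in gal11Δ med3Δ and -0.74 in gal11-myc med3Δ, and the YPD values beside medians of 0.03 and 0.02. DIA3, a gene of the acid phosphatase family, was called higher in CSM at 1.30 in gal11Δ med3Δ (adjusted p = 0.000164) and 1.57 in gal11-myc med3Δ (adjusted p = 3.36e-05). GPP2, a gene for a phosphatase of glycerol phosphate, was called lower in gal11Δ med3Δ in CSM at -1.16 (adjusted p = 9.85e-06).

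**Figure D5:**
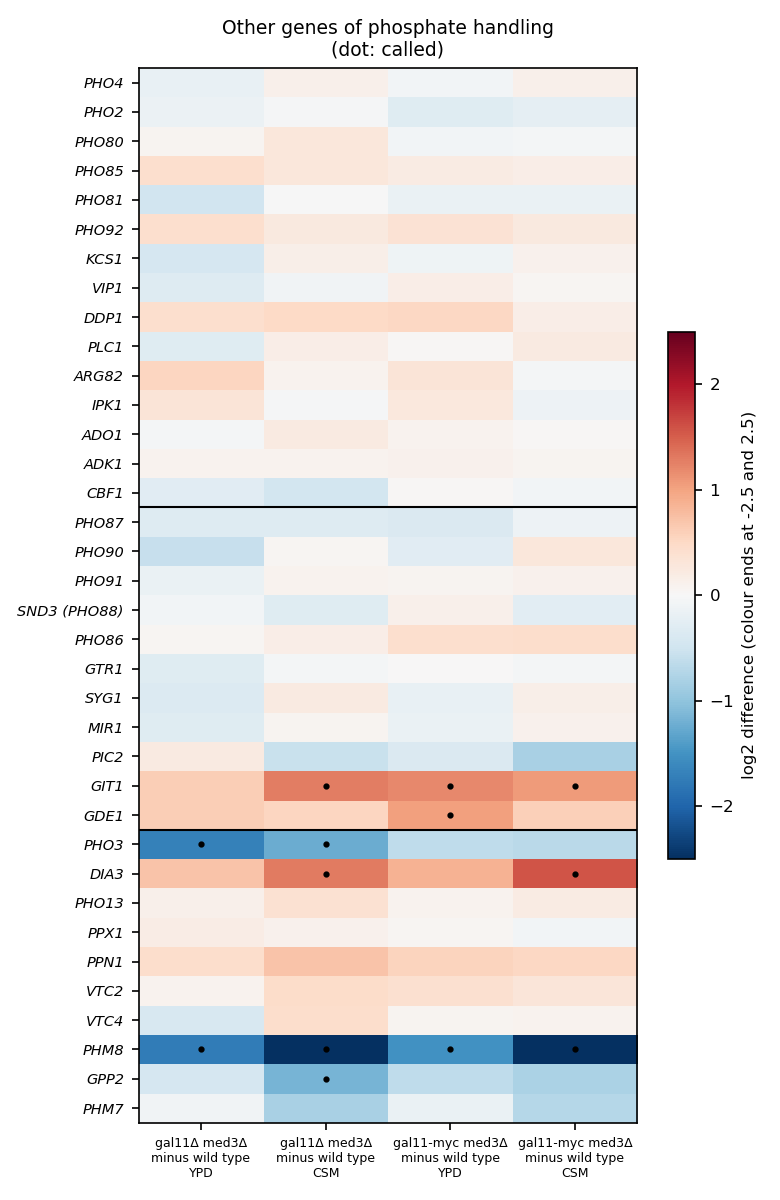
Log2 differences from the wild type (colour) of the other measured genes of phosphate handling (rows), in gal11Δ med3Δ and gal11-myc med3Δ in YPD and CSM (columns); lines part regulators, transport and glycerophosphodiester genes, and phosphatase and polyphosphate genes, and dots mark calls. The regulators carry no dot, and PHM8 carries 4.

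The authors' deposited table of fold changes, filtered differently for YPD and CSM per its header, called as many of the 9 genes in gal11-myc med3Δ in CSM and fewer in the other 3 comparisons of a mutant with the wild type. At the same thresholds it called 0 in gal11Δ med3Δ in YPD (3.37% of its probe sets, and 5 of the 9 at an uncorrected p under 0.05), 3 in gal11Δ med3Δ in CSM (4.57%), 1 in gal11-myc med3Δ in YPD (1.16%) and 2 in gal11-myc med3Δ in CSM (3.39%). PHO84 in gal11Δ med3Δ in YPD had a signed fold of -4.07 in the authors' deposited table, with a corrected p of 0.120.

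The authors' deposited table also compares BY4741 with BY4742 in YPD. Its heading names BY4741 first, but the markers run the other way: LYS2, deleted in BY4742, stood at -88.4 and MET17 (MET15), deleted in BY4741, at 440, so the folds are read here as BY4742 over BY4741. On that reading MFA2, expressed in MATa cells, stood at -164 and STE3, expressed in MATα cells, at 38.6 in the authors' deposited table, against the MATa label of BY4742. All 9 regulon genes were then higher in BY4742, PHO89 at 4.62, SPL2 at 2.19, PHO11 at 2.19, PHM6 at 1.80 and VTC3 at 1.62, with PHO8, PHO5, PHO84 and VTC1 between 1.10 and 1.27, per the authors' deposited table. None of the 9 was called there (0.163% of probe sets were), with 4 at an uncorrected p under 0.05 and a lowest corrected p among them of 0.503. For comparison, gal11Δ med3Δ was, like BY4742, low in LYS2 and MFA2. In the limma fit its log2 differences from the wild type in YPD were -2.02 for PHO84, -1.15 for SPL2, -0.85 for VTC3 and -0.66 for PHM6. They were 0.13 for PHO5, 0.21 for VTC1, 0.33 for PHO8, 0.58 for PHO89 and 1.36 for PHO11. On the log2 scale, the deposited BY4742 folds are 0.14 for PHO84, 1.13 for SPL2, 0.69 for VTC3 and 0.85 for PHM6. For PHO5 they are 0.24, for VTC1 0.13, for PHO8 0.35, for PHO89 2.21 and for PHO11 1.13. These values come from different fits. On the BY4742 arrays replicate 1 was the lowest for 9 of 9 regulon genes, and for 44.3% of all genes.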

How the data were processed

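Expression was measured on 21 Affymetrix arrays in 7 groups of 3. The authors used RMA, per the submitters' processing notes, and made their fold change table in GeneSpring 11.5.1, per the file headers. The deposited log2 values have a median of 0 for 100% of the 10928 probe sets within the YPD, CSM and BY4742 sets. Of these, 7244 carried 1 gene symbol, 1 several and 3683 none; 5498 matched a gene of the R64 table, giving 5449 genes after the probe sets of 47 genes were averaged. The genome build used by the authors is not given in the sources used here, so R64 served only for names, chromosomes and neighbours. The authors' deposited p-values, corrected p-values and signed fold changes (a score that is negative for lower) were copied unchanged.

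A linear model of 7 group means was fitted to all genes with limma 3.58.1 in R 4.3.3 (14 residual degrees of freedom), with Benjamini-Hochberg adjustment over all genes in each comparison. Each gene had 1 estimate of spread, shared by all 7 groups and both media, and every SE given comes from it. For a gene that varied more in YPD than in CSM, this spread can be too wide in CSM and too narrow in YPD. Tested on simulated data with 200 of 5449 genes changed by 1.5 on the log2 scale, the fit recovered 95% to 99.5% of them over the 8 comparisons. Of the genes that passed, 3.90% to 7.91% were unchanged ones. The simulated noise was independent between arrays, with 1 SD per gene in all groups and no shift of whole chromosomes. The real arrays differ in these points, so the simulation does not give the error rates of the real data. In YPD, deviations of arrays with the same replicate number correlated by 0.15 to 0.61 in all 9 pairs of groups, which is a hint of pairing from the data and not from the labels. The reported fit has no block, and a fit with the replicate number within medium as a block was run beside it. In CSM 2 of 9 correlations exceeded 0.1, from -0.22 to 0.22. The number of arrays limits the precision. All listed members are named; other pathway genes are named only where called in a comparison of a mutant with the wild type, plus PHO4, PHO2 and the 2 regulators with the largest difference. Members, lists and tests were chosen with earlier results of these data known. The BY4742 arrays, centred on their own, entered only the estimate of spread. The values for the arrays numbered 3 and for chromosome centring were added after seeing the data.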

Additional observations from a re-analysis of the deposited data

Results flagged for a closer look

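The tests of a difference between media or between the mutants passed for the following genes, which marks them for a closer look. The effect of gal11Δ med3Δ against the wild type was higher in CSM than in YPD by a log2 difference of 4.91 for PHO84, 2.73 for SPL2, 2.04 for PHM6 and 1.26 for VTC3. For gal11-myc med3Δ the same difference was 1.26 for PHM6. In YPD the effects of the mutants differed, gal11Δ med3Δ minus gal11-myc med3Δ, by -1.20 for PHO84, -1.50 for PHO89 and -1.03 for PHM6. In CSM they differed by 2.78 for PHO84. Of these 9 values, the 4 of gal11Δ med3Δ between media and the PHO84 value in CSM kept their call in each fit that left out 1 array, and the other 4 did not.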

How the results depend on the processing

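Of 72 differences (9 genes in 8 comparisons), the direction and the side of the threshold held for 72 with each array centred on its median or with robust moderation, 70 without the BY4742 arrays, 70 with probe sets not averaged, 69 with the replicate block, 68 with array weights by group, 65 with only the arrays of the groups compared, 65 with arrays centred per chromosome and 61 without the 3 YPD arrays numbered 3. In gal11Δ med3Δ against the wild type in YPD, the 3 calls became 7 at any size, 1 with only the arrays compared and 0 in the authors' table. In gal11-myc med3Δ against the wild type, 2 became 1 in YPD and 1 in CSM without the s_at probe set, and 1 in the authors' table in YPD. For gal11-myc med3Δ between media, 1 became 2 with the replicate block, with only the arrays compared, without BY4742 or without the YPD arrays numbered 3, and 3 with array weights. Between the mutants in YPD, 3 became 5 at any size, 0 with only the arrays compared and 1 without the YPD arrays numbered 3. Between the mutants in CSM, 1 became 2 with only the arrays compared or without the YPD arrays numbered 3. Leaving out 1 array gave 1 to 2 calls in gal11-myc med3Δ in CSM, 0 to 2 for gal11-myc med3Δ between media and 0 to 5 between the mutants in YPD. The replicate block changed no call but the 3 of PHO5 given above. Signs turned for the differences listed next. Not all were near 0: between the mutants, SPL2 in YPD was reported at -0.58 and PHO89 in CSM at 0.23. Centred per chromosome, signs turned for VTC1 in gal11Δ med3Δ in YPD (-0.51) and between the mutants in YPD (-0.59), for PHO5 in gal11Δ med3Δ in CSM (0.63), and for PHO89 (0.58) and PHO5 (0.50) in gal11Δ med3Δ between media. Without the YPD arrays numbered 3, PHO11 in gal11Δ med3Δ between media was -0.38. Leaving out 1 array gave values on both sides of 0, from the lowest to the highest, for PHO5 in gal11Δ med3Δ in YPD (-0.39 to 0.73), CSM (-0.076 to 0.019) and between media (-0.76 to 0.36), for PHO89 (-0.49 to 0.21) and PHO11 (-0.22 to 0.64) in gal11Δ med3Δ between media, for VTC3 in gal11-myc med3Δ in YPD (-0.10 to 0.23) and between media (-0.18 to 0.15), for VTC1 there (-0.0070 to 0.14), for PHO84 in gal11-myc med3Δ in CSM (-0.0076 to 0.24), and between the mutants for SPL2 in YPD (-0.93 to 0.074) and PHO89 in CSM (-0.093 to 0.42). Over all genes, arrays centred per chromosome gave 77 calls, against 167 as reported, for gal11-myc med3Δ between media, and 60, against 110, between the mutants in YPD. At any size 745 to 2555 genes passed, against 110 to 506 at 2-fold. The causes were not tested. With only the arrays compared, fewer arrays estimate the spread.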

Other observations

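Apart from PHO84 and SPL2, 4 genes were called lower in YPD and higher in CSM in gal11Δ med3Δ against the wild type, named here after their values were seen. PUT4, the proline permease, had log2 differences of -1.33 in YPD and 2.13 in CSM. SRT1, a cis-prenyltransferase, had -1.04 and 1.12. The open reading frames YAL063C-A and YDR042C had -1.04 and 1.02, and -1.01 and 1.12. None of these 4 is among the listed genes of phosphate handling.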
